A study of Homo sapiens with 4 samples.

Results

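Expression of 10 Krüppel-like factor genes, KLF2, KLF3, KLF4, KLF5, KLF6, KLF7, KLF9, KLF10, KLF11 and KLF13, was read from a table of 35211 genes as the rows carrying those gene symbols. RNA had been sequenced from 4 libraries, 1 per group: DU145 cells transfected with a plasmid for overexpression of circ0003553, DU145 cells with a negative control plasmid, PC3 cells with the circ0003553 plasmid, and PC3 cells with the negative control plasmid. DU145 and PC3 are established human prostate cancer cell lines, each propagated from the metastasis of 1 patient. The cells of all 4 libraries had thus been transfected. The circular RNA is named in the sample titles after RCAN3, a gene for a regulator of calcineurin. No source used here gives the share of cells that took up a plasmid or the time of harvest. Since a library is bulk RNA, more cells expressing a gene and more RNA per cell cannot be told apart.

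Krüppel-like factors are transcription factors that bind GC-rich and CACCC-type DNA through zinc fingers at the carboxyl end of the protein. Their remaining parts differ and decide which cofactors they recruit. KLF2, KLF4, KLF5, KLF6 and KLF7 are mainly known as activators, KLF3 as a repressor that recruits CtBP proteins, and KLF9, KLF10, KLF11 and KLF13 as factors that recruit the SIN3A corepressor. In epithelia, KLF4 is known for differentiation and growth arrest and KLF5 for proliferating progenitor cells. KLF6 has been described as a growth suppressor in prostate cancer.

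The libraries held 33438509 to 39488890 counts. Gene-level counts of RCAN3 were 816 with circ0003553 and 639 with the control plasmid in DU145, and 3798 with circ0003553 and 1212 with the control plasmid in PC3, but they do not separate circular from linear RNA. CTNNA1, known to be lost in PC3, was at 0.608 and 0.471 RPKM (counts scaled by exon length and library total) in the PC3 libraries with circ0003553 and the control plasmid, and at 47.0 and 44.9 RPKM in the DU145 libraries. The epithelial markers EPCAM, KRT8, KRT18 and KRT19 were at or above 29.6 RPKM in all 4 libraries, while CDH1 was at 0.443 and 0.407 RPKM in PC3. The luminal prostate marker TMPRSS2 was at most 0.0489 RPKM in any library. Of other cell types, 3 of 4 leukocyte markers were in the table and summed to at most 0.419 RPKM in any library. The 5 fibroblast markers reached 4.03 RPKM in sum, nearly all of it COL1A1 in PC3, and the 4 endothelial markers 9.74 RPKM, nearly all of it KDR and PECAM1 in PC3, with CDH5 and VWF at most 0.0369 RPKM. Mitochondrially encoded genes took 4.96% of counts with circ0003553 and 6.28% with the control plasmid in DU145, and 6.34% and 6.88% in PC3. The part of that shift in the results was not tested.

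The members are protein-coding genes, and the deposited table places them on chromosomes 2 (KLF7 and KLF11), 4 (KLF3), 8 (KLF10), 9 (KLF4 and KLF9), 10 (KLF6), 13 (KLF5), 15 (KLF13) and 19 (KLF2). In the coordinates of that table (hg38 per the submitters' notes), KLF4 spans 107484852 to 107490482 of chromosome 9 on the minus strand, KLF6 3775996 to 3785281 of chromosome 10 on the minus strand and KLF2 16324817 to 16327874 of chromosome 19 on the plus strand. KLF5 spans 73054976 to 73077542 of chromosome 13 on the plus strand and KLF10 102648779 to 102655902 of chromosome 8 on the minus strand. All 10 members were detected in every library, and all 10 passed the filter on low counts. Per length, KLF10, KLF5 and KLF6 carried most of the signal. KLF10, a repressor induced early by TGF-beta, was at 26.4 RPKM in the PC3 circ0003553 library and 18.5 RPKM in the PC3 control library, against 5.41 and 5.20 RPKM in the DU145 libraries with circ0003553 and the control plasmid. KLF5 was at 17.2 and 14.8 RPKM in PC3 with circ0003553 and the control plasmid, and at 9.67 and 7.93 RPKM in DU145. KLF6 had the opposite order of lines, with 4.69 and 3.99 RPKM in PC3 and 10.8 and 6.55 RPKM in DU145. The 3 genes together held 81.1% and 80.5% of the summed RPKM of the 10 members in PC3 with circ0003553 and the control plasmid, and 62.4% and 62.3% in DU145. At the low end, KLF7 ranged from 0.417 to 0.708 RPKM and KLF9 from 0.396 to 0.793 RPKM over the 4 libraries.

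**Figure D1:**
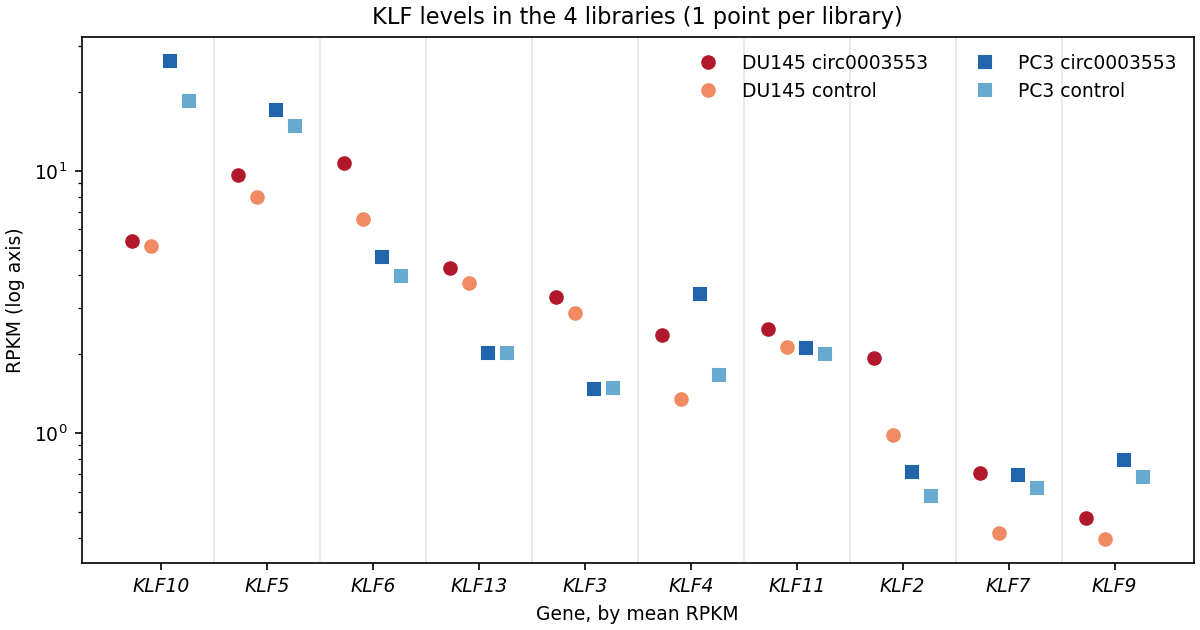
RPKM of each gene (log axis) in the 4 libraries, 1 point per library, genes ordered by mean RPKM. KLF10 is higher in both PC3 libraries (26.4 and 18.5 RPKM) than in both DU145 libraries (5.41 and 5.20 RPKM), whereas KLF6, KLF13, KLF3 and KLF2 are lower in both PC3 libraries.

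The order of the members by mean RPKM was KLF10, KLF5, KLF6, KLF13, KLF3, KLF4, KLF11, KLF2, KLF7 and KLF9. Of the neighbours in that order, only KLF11 (2.01 to 2.49 RPKM) and KLF2 (0.578 to 1.94 RPKM) had ranges over the 4 libraries that did not overlap. The leading gene changed with the library: KLF10 in both PC3 libraries, KLF6 in the DU145 circ0003553 library and KLF5 in the DU145 control library. KLF6 made up 26.0% of the members' RPKM with circ0003553 and 20.7% with the control plasmid in DU145, and 7.88% and 8.61% in PC3. KLF10 alone made up 44.4% and 39.9% in PC3 and 13.1% and 16.5% in DU145. KLF11 varied least, by 1.24 times between its lowest and highest library, and KLF10 most, by 5.07 times.

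**Figure D2:**
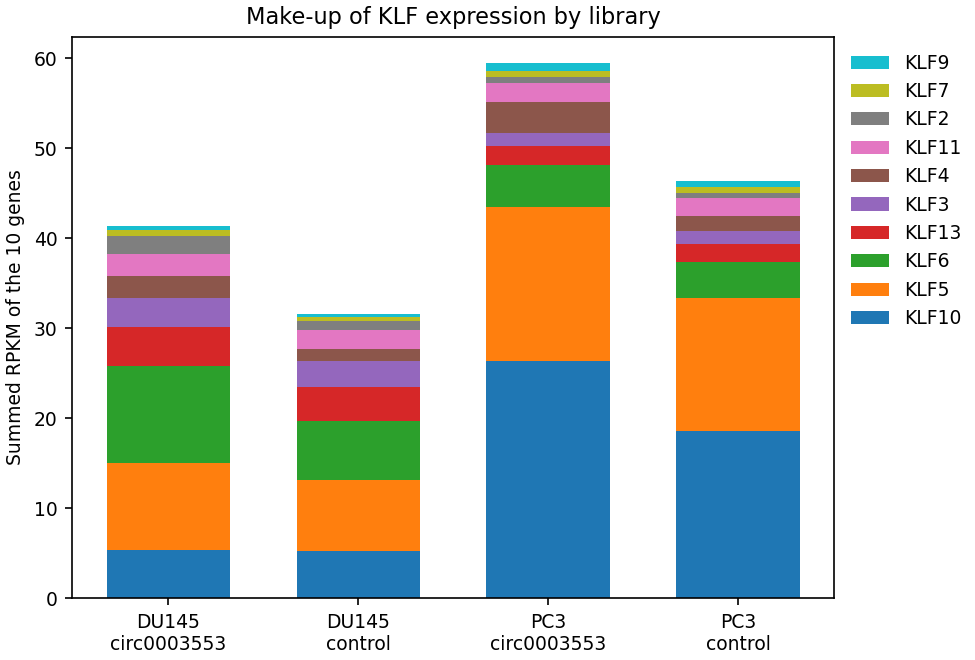
Summed RPKM of the 10 genes in each library, stacked by gene, with 1 bar per library. The sums are 41.4 with circ0003553 and 31.6 with the control plasmid in DU145, and 59.4 and 46.4 in PC3, where KLF10 and KLF5 fill most of the bar.

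The first comparison asked what overexpression of circ0003553 did to these genes. KLF4, which is also one of the factors used to reprogram cells to pluripotency, was more abundant in both lines when circ0003553 had been transfected. It had 317 counts (2.38 RPKM) with circ0003553 against 188 counts (1.35 RPKM) with the control plasmid in DU145. In PC3 it had 493 counts (3.41 RPKM) with circ0003553 against 204 counts (1.67 RPKM) with the control plasmid. Both circ0003553 libraries lay above both control libraries, although the lines differ. After TMM scaling the DU145 libraries were 1.81-fold apart (95% interval 1.51 to 2.18) and the PC3 libraries 2.01-fold (1.71 to 2.38). These intervals are exact conditional binomial ones and cover counting error only, and no ratio within a line has a replicate.

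Across lines, with the cell line as a block, KLF4 rose 1.91-fold, a log2 fold change of 0.94 ± 0.16 (SE, with n = 2 libraries for each plasmid). By the quasi-likelihood test of edgeR, Benjamini-Hochberg adjusted over all genes, its adjusted p was 0.0146. It was the 1 of 10 members called higher, beside 0.396% of the 21731 genes tested, and 0 members were called lower (0.069% of genes). The fit has 1 residual degree of freedom and a prior of 13.4 from other genes, so its p-values rest mostly on the spread estimated across genes. KLF4 missed the threshold with DESeq2, at an adjusted p of 0.285, with limma-voom (0.178), with all genes kept regardless of counts (0.308) and with the cell line left out of the model, at log2 fold changes of 0.93 to 0.95, so with DESeq2 and limma-voom 0 members were called.

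The other activators gave fitted values above 0 without a call. KLF6 had 2409 counts with circ0003553 against 1531 with the control plasmid in DU145, and 1136 against 820 in PC3. Its ratio was 1.69-fold in DU145 (1.58 to 1.80) and 1.15-fold in PC3 (1.05 to 1.26), and its fitted log2 fold change was 0.49 ± 0.13 (SE; adjusted p = 0.162, edgeR). KLF2, known for keeping endothelial and T cells quiescent, had 143 counts with circ0003553 against 76 with the control plasmid in DU145, and 57 against 39 in PC3. The KLF2 ratio was 2.02-fold in DU145 (1.52 to 2.71) and 1.22-fold in PC3 (0.796 to 1.88), where the interval includes 1. Its fitted value was 0.75 ± 0.28 (adjusted p = 0.439, edgeR), the largest SE among the members. KLF2 and KLF9 had the fewest counts of the 10.

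KLF7, which is known for roles in neurons, had 239 counts with circ0003553 against 147 with the control plasmid in DU145, and 254 against 192 in PC3. In DU145 that was a ratio of 1.75-fold (1.42 to 2.16), and in PC3 one of 1.10-fold (0.910 to 1.34). KLF5 had 1373 counts with circ0003553 against 1175 with the control plasmid in DU145 and 2637 against 1927 in PC3, ratios of 1.25-fold (1.16 to 1.36) and 1.14-fold (1.07 to 1.21). The fitted values were 0.46 ± 0.20 for KLF7 (adjusted p = 0.516) and 0.26 ± 0.10 for KLF5 (adjusted p = 0.475, both by edgeR's quasi-likelihood test).

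**Figure D3:**
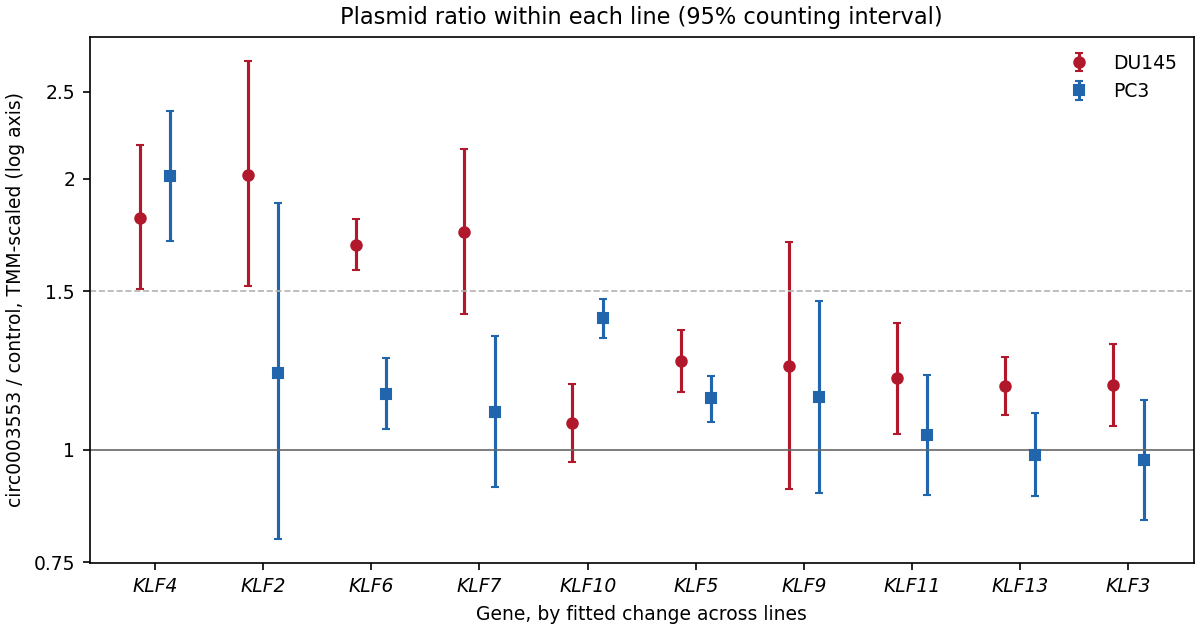
Ratio of the circ0003553 library to the control library within DU145 (circles) and PC3 (squares), TMM-scaled, on a log axis, with 95% exact intervals for counting error. The intervals use the counts as deposited and are wider with counts halved. The dashed line marks 1.5-fold. KLF4 lies above 1.5-fold in both lines (1.81 and 2.01), while KLF2, KLF6 and KLF7 do so in DU145 but not in PC3, and KLF10 is nearer to it in PC3 (1.40) than in DU145 (1.07).

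The factors that recruit SIN3A gave fitted values from 0.12 to 0.31 without a call. KLF10 had 789 counts with circ0003553 against 792 with the control plasmid in DU145 and 4167 against 2480 in PC3. The ratio was 1.07-fold in DU145 (0.968 to 1.18) and 1.40-fold in PC3 (1.33 to 1.47), and the fitted log2 fold change was 0.31 ± 0.11 (adjusted p = 0.436, edgeR). KLF9, a target of glucocorticoid and thyroid hormone receptors, had 90 counts with circ0003553 against 78 with the control plasmid in DU145, and 162 against 118 in PC3. The KLF9 ratio was 1.24-fold in DU145 (0.905 to 1.70) and 1.14-fold in PC3 (0.896 to 1.46), and both intervals include 1. KLF11, the close relative of KLF10, had 417 counts with circ0003553 against 373 with the control plasmid in DU145, and 384 against 308 in PC3. Its ratio was 1.20-fold in DU145 (1.04 to 1.38) and 1.04-fold in PC3 (0.891 to 1.21), where the interval includes 1. With counts halved, since reads of a pair appear often to have been counted singly, the DU145 interval was 0.981 to 1.47 and included 1 too. KLF13, an activator of CCL5 in T cells, had 1465 counts with circ0003553 against 1337 with the control plasmid in DU145 and 754 against 636 in PC3. That was 1.18-fold in DU145 (1.09 to 1.27) and 0.987-fold in PC3 (0.887 to 1.10), and with scaling by total counts the PC3 value turned to 1.004-fold. Fitted values were 0.24 ± 0.23 for KLF9, 0.16 ± 0.15 for KLF11 and 0.12 ± 0.12 for KLF13 (adjusted p = 0.844, 0.841 and 0.861, edgeR).

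KLF3, the repressor that recruits CtBP, had 759 counts with circ0003553 against 691 with the control plasmid in DU145, and 366 against 313 in PC3. Its ratio was 1.18-fold in DU145 (1.06 to 1.31) and 0.974-fold in PC3 (0.835 to 1.14), with a fitted value of 0.11 ± 0.14 (adjusted p = 0.888, edgeR). KLF3 shares 4.22% of its exon bases with KLF3-AS1 on the other strand, which had 191 counts with circ0003553 against 140 with the control plasmid in DU145 and 67 against 64 in PC3. Whether reads of one were counted for the other cannot be told from the counts. KLF11 shares 9.07% with RP11-254F7.3, which had 2 to 6 counts in any library. The remaining 8 members share no exon base with another gene of the table.

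Read together as a list, the members' fitted plasmid values had a median log2 fold change of 0.28, beside 0.00303 over all genes tested. The members' values ran from 0.11 for KLF3 to 0.94 for KLF4. An unadjusted p under 0.05 with a higher value was found for 6 of 10 members, beside 4.86% of all genes tested, and with a lower value for 0 of 10, beside 4.01%. The ratio was above 1 in both lines for 8 of 10 members (28.6% of genes with at least 50 counts in each line) and below 1 in both for 0 (27.3%). Within DU145, 4 of 10 members were at least 1.5-fold higher with circ0003553 (KLF2, KLF4, KLF6 and KLF7), beside 4.47% of genes with at least 50 counts in that line, and 0 were at least 1.5-fold lower (4.75% of genes). Within PC3, 1 of 10 was at least 1.5-fold higher (KLF4), beside 3.51% of genes, and 0 were lower by as much (2.4% of genes). KLF4 was the 1 member past 1.5-fold in both lines, beside 0.611% of 15868 genes. The median log2 ratio of the members was 0.31 in DU145 and 0.19 in PC3, beside 0.00578 and 0.000556 over all genes. In TMM-scaled CPM both circ0003553 libraries lay above both control libraries for 3 members, KLF4, KLF7 and KLF11, beside 5.56% of genes. In RPKM, which is scaled by total counts, this did not hold for KLF11, at 2.12 RPKM in the PC3 circ0003553 library and 2.14 RPKM in the DU145 control library. The members were chosen with earlier results of these data known, so these counts are a description.

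**Figure D4:**
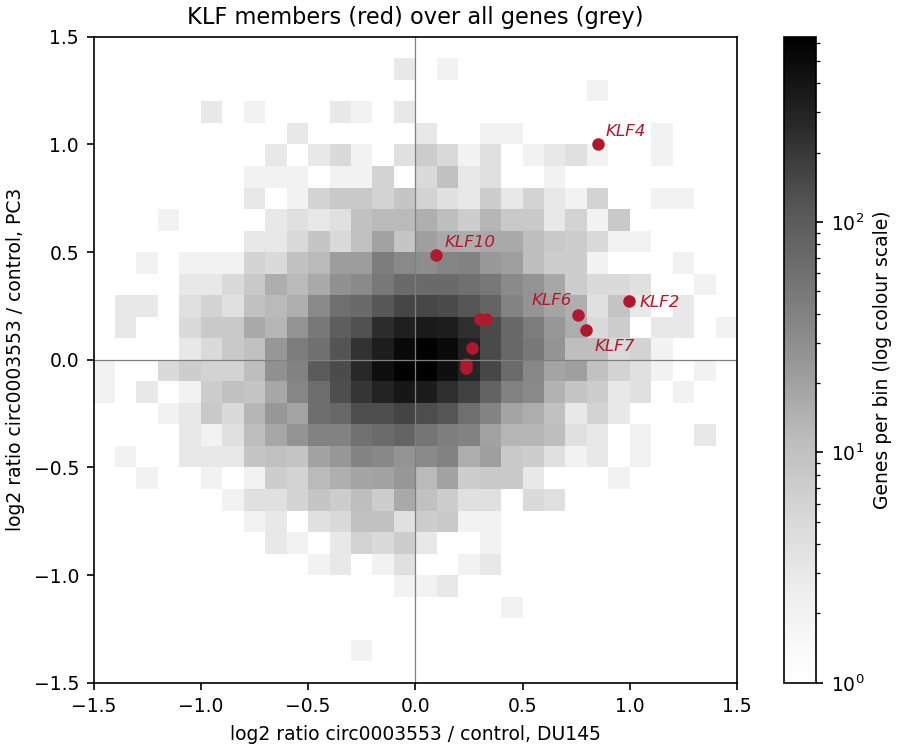
Log2 ratio of circ0003553 to control in DU145 (x axis) and PC3 (y axis) for the 10 members (red points) over 15868 genes with at least 50 counts in each line (grey, genes per bin); 72 genes beyond 1.5 on either axis are not shown. KLF2, KLF6 and KLF7 are displaced to the right along the DU145 axis, KLF10 upward along the PC3 axis, and KLF4 along both (0.85 and 1.002).

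The size of the ratio differed between the lines for several members. The counting intervals of the PC3 and DU145 ratios did not overlap for KLF6 (log2 ratio 0.21 in PC3 and 0.76 in DU145), KLF7 (0.14 and 0.80) and KLF10 (0.48 and 0.10). The share of all genes whose intervals lie apart in this way was not counted. Nothing particular to these members can therefore be read from it. With counts halved the KLF7 intervals did overlap, at 0.839 to 1.45 in PC3 and 1.29 to 2.36 in DU145, while those of KLF6 and KLF10 stayed apart. For KLF2, at 0.27 in PC3 and 0.996 in DU145, the intervals overlapped, and likewise for the other 6. An interaction of line and plasmid leaves no residual degree of freedom, so none of these differences was tested against a spread between replicates.

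The RefSeq promoter windows (build GRCh38.p14, 250 bases before to 50 after a gene's start) of the 4 members at least 1.5-fold higher in DU145 are shown to let their sequence be compared. They are chr19:16324576-16324875 on the plus strand for KLF2, chr9:107489720-107490019 on the minus strand for KLF4, chr10:3785160-3785459 on the minus strand for KLF6 and chr2:207165899-207166198 on the minus strand for KLF7, each written 5′ to 3′ along the gene. Capitals mark matches on either strand to the GC box GGGCGG, to the CACCC box CCACCC and to the MEF2 site.
KLF2: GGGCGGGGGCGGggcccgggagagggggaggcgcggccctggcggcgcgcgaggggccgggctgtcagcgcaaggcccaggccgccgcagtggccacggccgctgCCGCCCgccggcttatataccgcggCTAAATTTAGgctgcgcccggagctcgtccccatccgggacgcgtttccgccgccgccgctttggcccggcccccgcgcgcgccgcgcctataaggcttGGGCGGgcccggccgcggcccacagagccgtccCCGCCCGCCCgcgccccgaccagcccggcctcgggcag
KLF4: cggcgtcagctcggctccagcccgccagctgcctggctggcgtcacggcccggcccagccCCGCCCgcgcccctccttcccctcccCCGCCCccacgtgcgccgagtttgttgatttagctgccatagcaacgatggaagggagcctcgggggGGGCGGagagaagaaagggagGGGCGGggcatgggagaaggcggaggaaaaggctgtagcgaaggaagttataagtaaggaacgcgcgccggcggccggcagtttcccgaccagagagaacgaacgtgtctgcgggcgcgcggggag
KLF6: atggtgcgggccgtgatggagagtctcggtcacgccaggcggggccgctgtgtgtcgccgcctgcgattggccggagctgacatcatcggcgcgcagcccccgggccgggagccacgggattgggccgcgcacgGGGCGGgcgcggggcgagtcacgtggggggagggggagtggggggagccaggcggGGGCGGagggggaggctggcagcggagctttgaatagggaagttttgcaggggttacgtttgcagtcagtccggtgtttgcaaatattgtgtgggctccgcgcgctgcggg
KLF7: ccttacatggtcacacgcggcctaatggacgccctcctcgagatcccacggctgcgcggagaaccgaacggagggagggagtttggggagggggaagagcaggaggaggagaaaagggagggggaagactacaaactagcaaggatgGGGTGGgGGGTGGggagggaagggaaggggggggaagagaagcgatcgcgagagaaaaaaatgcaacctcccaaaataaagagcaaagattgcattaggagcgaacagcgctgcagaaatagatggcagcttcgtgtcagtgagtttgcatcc

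The windows of KLF2, KLF4 and KLF6 held 6, 4 and 2 GC box matches, those of KLF2 touching or overlapping in places, and that of KLF7 held 2 CACCC box matches. Windows were found for 8 members, of which 5 held a GC box, beside 45.0% of 35114 promoters of the same length. Those 5 windows were 69.0% to 80.7% G and C, beside a median of 58.7% over all promoters. The shares are thus not matched for base composition. The CACCC box was in 2 of 8, beside 34.3%. A MEF2 site, 120 bases before the start, was found in KLF2 alone of the 8 windows, beside 0.572% of promoters. MEF2 factors are known to drive KLF2 and KLF4 downstream of the kinases MEK5 and ERK5. The AP-1 site TGANTCA (7.71% of promoters), the cyclic AMP response element TGACGTCA (1.85%), the interferon-stimulated response element core GAAANNGAA (8.11%), the gamma-activated site TTCNNNGAA (7.66%) and the CArG box (1.29%) had no match in these windows. The TATA box TATAAA was in the KLF5 window, beside 11.5% of promoters. A match is a description of letters, and the start used by these cells was not measured. The KLF4 start used here lies 713 bases inside the outermost exon end listed for KLF4 in the deposited table. The KLF7 start lies 1319 bases inside and the KLF11 start 980 bases inside.

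Between the lines the members split in both directions. Over both plasmids, KLF10, KLF5, KLF9 and KLF4 were higher in PC3 than in DU145, and KLF2, KLF3, KLF13 and KLF6 were lower. These were 8 of 10 members called by edgeR's quasi-likelihood test at an adjusted p of 0.05, beside 65.9% of all genes tested (33.1% higher and 32.8% lower), so the share is near that of genes at large. KLF10 was 4.38-fold higher in PC3, a log2 fold change of 2.13 ± 0.12 (SE, n = 2 libraries per line; adjusted p = 7.36e-10, edgeR). Its ratio of PC3 to DU145 was 5.01-fold with circ0003553 (4.64 to 5.41) and 3.83-fold with the control plasmid (3.53 to 4.15). The next largest difference was that of KLF2, at -1.11 ± 0.29 (adjusted p = 0.00335, edgeR). The KLF2 ratio of PC3 to DU145 was 0.378 with circ0003553 (0.273 to 0.517) and 0.628 with the control plasmid (0.415 to 0.935). With counts halved the interval with the control plasmid was 0.355 to 1.13, which includes 1.

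KLF5 was 1.91-fold higher in PC3 (log2 fold change 0.93 ± 0.10, adjusted p = 1.67e-06, edgeR) and KLF9 1.77-fold higher (0.82 ± 0.23, adjusted p = 0.00536). KLF4 was higher in PC3 by a log2 fold change of 0.49 ± 0.16 (adjusted p = 0.0136, edgeR), with ratios of 1.47-fold with circ0003553 (1.28 to 1.70) and 1.33-fold with the control plasmid (1.08 to 1.63). With counts halved the interval with the control plasmid was 0.993 to 1.78, which includes 1. The KLF4 libraries of the lines interleaved, since the DU145 circ0003553 library (2.38 RPKM) lay above the PC3 control library (1.67 RPKM). KLF3, KLF13 and KLF6 were lower in PC3 at -0.99 ± 0.14, -0.91 ± 0.12 and -0.89 ± 0.13 (adjusted p = 1.52e-05, 7.12e-06 and 2.31e-05, edgeR). For these 3 genes both PC3 libraries lay, in CPM, below both DU145 libraries, as they did for KLF2, which is 4 of 10 members beside 39.9% of genes. Both PC3 libraries lay above both DU145 libraries for 3 members, KLF5, KLF9 and KLF10, beside 41.8% of genes. KLF7 (0.31 ± 0.20, adjusted p = 0.178, edgeR) and KLF11 (-0.09 ± 0.15, adjusted p = 0.596) were not called. KLF7 had a ratio of 1.01 in the circ0003553 libraries (0.841 to 1.21) and 1.60 in the control libraries (1.28 to 1.99). With DESeq2 the calls of KLF9, KLF4 and KLF2 were lost (adjusted p = 0.146, 0.189 and 0.153), leaving 2 higher and 3 lower. Over all genes, DESeq2 called 10085 between lines, against 14331 with edgeR.

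**Figure D5:**
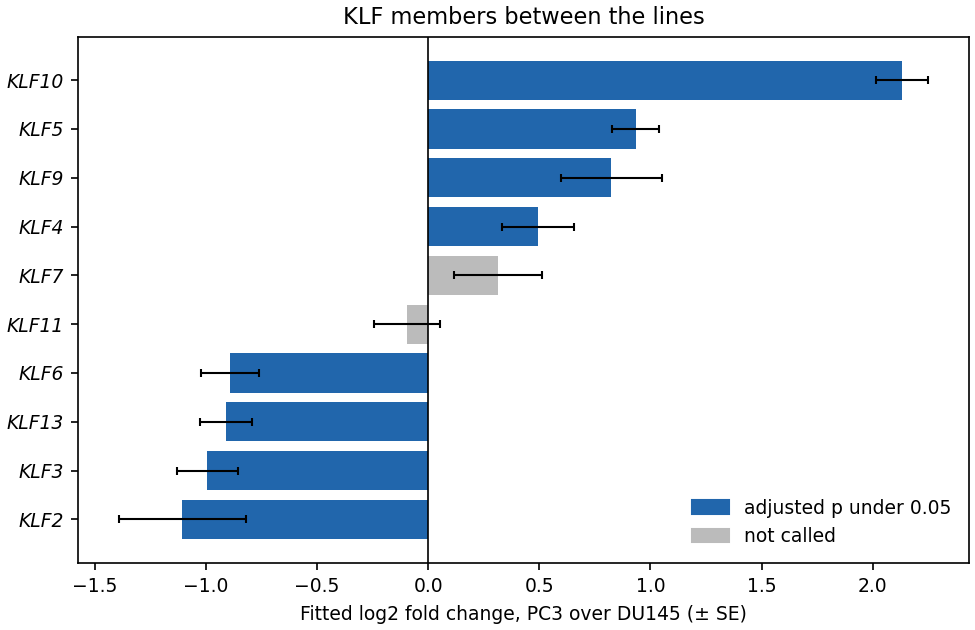
Fitted log2 fold change of PC3 over DU145 for each member over both plasmids, with SE as error bars; blue bars have an adjusted p under 0.05 and grey bars do not. Values run from 2.13 for KLF10 to -1.11 for KLF2, with 4 members called higher, 4 called lower and 2 not called.

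Genes of the same family and pathway that are not members were read from lists. Of 16 other KLF and SP genes 11 were tested and none was called between plasmids (median fitted log2 fold change 0.15), beside 0.465% of all genes called in either direction. The 3 with the smallest p were SP4 (0.33 ± 0.19, adjusted p = 0.677, edgeR), SP1 (0.15 ± 0.10, adjusted p = 0.723) and SP2 (0.17 ± 0.11, adjusted p = 0.726). Between lines 4 of the 11 were higher in PC3 and 4 lower, beside 33.1% and 32.8% of all genes tested.

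Of 13 cofactors none was called between plasmids (median -0.01), with the acetyltransferase EP300 at 0.23 ± 0.10 (adjusted p = 0.507, edgeR), SIN3B at 0.19 ± 0.10 (0.673) and SAP30 at -0.18 ± 0.12 (0.740). SIN3B, a scaffold of the SIN3 corepressor, was higher in PC3 at 1.09 ± 0.10 (adjusted p = 3.02e-07, edgeR). In all, 7 of the 13 were higher in PC3 and 3 lower, beside 33.1% and 32.8% of all genes.

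On the MEK5, ERK5 and MEF2 route none of 8 genes was called between plasmids (median 0.03). MEF2D, a transcription factor of the MEF2 family, had 13.9 RPKM with circ0003553 against 10.6 RPKM with the control plasmid in DU145 and 3.54 against 2.79 RPKM in PC3, a fitted value of 0.38 ± 0.11 (adjusted p = 0.205, edgeR). MEF2B stood at 0.22 ± 0.21 (0.848) and MAPK7, which encodes ERK5, at -0.14 ± 0.14 (0.856). Between lines 3 of these 8 genes were higher and 3 lower in PC3, beside 33.1% and 32.8% of all genes. MEF2D was lower in PC3, at -1.87 ± 0.11 (adjusted p = 1.08e-09, edgeR).

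Of 8 ubiquitin enzymes described as acting on KLF proteins none was called between plasmids (median -0.05). SMURF2, a ubiquitin ligase, had 3393 counts with circ0003553 against 1970 with the control plasmid in DU145 and 2536 against 2210 in PC3, ratios of 1.85-fold (1.75 to 1.96) and 0.956-fold (0.902 to 1.01). Its fitted value was 0.41 ± 0.16 (adjusted p = 0.459, edgeR), beside 0.15 ± 0.10 for SMURF1 (0.736) and -0.12 ± 0.11 for WWP1 (0.820), a ligase known to act on KLF5. Of the 8, 5 were higher in PC3 and 0 lower, beside 33.1% and 32.8% of all genes.

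Among 18 immediate early genes tested, ATF3 alone was called higher, at 2.94-fold (log2 fold change 1.56 ± 0.16, adjusted p = 0.000121, edgeR). That is 1 of 18 beside 0.396% of all genes, with a list median of 0.15. ZFP36 was at 0.76 ± 0.21 (adjusted p = 0.216) and FOSL1 at 0.37 ± 0.10 (0.223). Several members, among them KLF2, KLF4, KLF6 and KLF10, are themselves known as early-response genes. Of the 18, 7 were higher and 9 lower in PC3, beside 33.1% and 32.8% of all genes.

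None of 9 TGF-beta responsive genes was called between plasmids (median 0.05), with PMEPA1 at -0.38 ± 0.13 (adjusted p = 0.356, edgeR) and LTBP2 at 0.26 ± 0.13 (0.571). Between lines 3 of the 9 were higher and 4 lower in PC3, beside 33.1% and 32.8% of all genes. None of 6 glucocorticoid responsive genes was called between plasmids (median 0.12). DUSP1 was at 0.36 ± 0.13 (adjusted p = 0.405, edgeR), SGK1 at 0.44 ± 0.23 (0.618) and FKBP5 at -0.16 ± 0.10 (0.716). Between lines 3 of the 6 were higher and 3 lower in PC3, beside the same 33.1% and 32.8% of all genes.

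Of 21 genes described as KLF targets 18 were tested and none was called between plasmids (median -0.01). CCL5, the chemokine RANTES, had 38 counts with circ0003553 against 12 with the control plasmid in DU145, and 24 against 0 in PC3 (adjusted p = 0.111, edgeR). CDH1, which encodes E-cadherin, had 2478 counts with circ0003553 against 4821 with the control plasmid in DU145 and 108 against 84 in PC3 (fitted -0.60 ± 0.17, adjusted p = 0.210, edgeR). CCNB1 was at -0.31 ± 0.11 (adjusted p = 0.398). Between lines, 5 of the 18 were higher in PC3 and 10 lower, beside 33.1% and 32.8% of all genes.

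The genes most like KLF4 over the 4 libraries, by Euclidean distance of mean-centred log2 CPM among 8188 genes whose mean log2 CPM was 4 or more, were PARP9 (distance 0.117), PDLIM7 (0.291) and HELZ2 (0.309). PARP9, an ADP-ribosyltransferase family member, had 1107 counts with circ0003553 against 666 with the control plasmid in DU145, and 1836 against 788 in PC3. Those most like KLF10 were P4HA1 (0.151), AGAP5 (0.162) and PRDM8 (0.171). With 4 libraries, 125 genes lay within 0.5 of KLF10 and 8 within 0.5 of KLF4, and the distance says nothing of shared function or control. PARP9, P4HA1 and AGAP5 share exon bases with another gene.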

How the data were processed

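Total RNA was depleted of ribosomal RNA and made into strand-specific libraries with unique molecular identifiers, per the labels' protocols. Trimmomatic 0.36, Subread 1.5.1, featureCounts, edgeR 3.12.1 and the build hg38 are listed, without roles, per the submitters' processing notes. No source used here names the aligner, the strand setting or the handling of identifiers. The deposited tables hold raw counts for each gene and the authors' RPKM. The deposited RPKM equalled counts divided by length and library total within a relative difference of 1e-09. Columns were matched to samples by name. Of values from 1 to 20, 70.3% to 75.3% were even in each library, so a read pair appears often to have been counted as 2.

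Counts were fitted with edgeR 4.0.16 (R 4.3.3): TMM scaling, low-count filtering by plasmid, an additive model of line and plasmid, the quasi-likelihood test and Benjamini-Hochberg adjustment over 21731 genes at 0.05. The SE is the fitted log2 value over the root of the F statistic. No label says that the libraries come from separate cultures. With the block, the 1 residual degree of freedom reflects the difference in plasmid response between the 2 lines. The p-values pool it with the spread estimated across genes, and they do not measure a spread between replicate cultures. Within a line, ratios used a prior count of 2 for log2 values and 95% Clopper-Pearson intervals; genes with at least 50 counts in a line were counted. The procedure was tested on simulated data, drawn with a common spread for all genes and the same plasmid change in both lines. Alternatives were DESeq2 1.42.0, limma-voom (limma 3.58.1), legacy dispersions, other scalings and filters, halved counts, genes sharing no exon base and no block. Named genes were all members, and in each list the called genes and the 3 with the smallest plasmid p; KLF8, KLF12, KLF17 and SP8 were named after their values were seen. The members, the subgroups by cofactor and the lists were chosen with earlier results of these data known. The pairing is by cell line, as the labels give it. Promoters came from RefSeq tables and were matched by symbol. Some genes of the lists and markers are not reported here.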

Additional observations from a re-analysis of the deposited data

Results flagged for a closer look

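KLF3 and KLF13 moved in opposite directions in the lines, with a ratio of circ0003553 to control below 1 in PC3 and above 1 in DU145. The log2 ratio in PC3 minus that in DU145 was -0.28 for KLF3 (-0.04 and 0.24) and -0.25 for KLF13 (-0.02 and 0.23). Both PC3 counting intervals include 1, the KLF13 ratio in PC3 turned to 1.004-fold under scaling by total counts, and the difference was not tested, since each line has 1 library per plasmid.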

How the results depend on the processing

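The count of members called higher with circ0003553 was 1 as reported and 0 with DESeq2, limma-voom, no filter on low counts and no cell line block, and 1 under the other 6 alternatives. The lost call was that of KLF4, whose log2 fold change was 0.93 with DESeq2, 0.94 with limma-voom, 0.94 with no filter (adjusted p = 0.308) and 0.95 with no replicate block (adjusted p = 0.9999); the cause was not tested. Over the 9 alternatives with the block its adjusted p ran from 0.00812 to 0.308. The number of all genes called between plasmids was 101 as reported, 63 with DESeq2, 26 with limma-voom, 53 with legacy dispersions, 9 with no filter, 48 among genes sharing no exon base (fewer genes tested) and 0 without the block. Between lines, 2 members were called higher with DESeq2 in place of 4, beside 10085 of all genes called in either direction in place of 14331. Without the block of plasmid KLF4 lost its call (adjusted p = 0.207, edgeR), and 13641 of all genes were called. No fitted value changed sign. For KLF2, DESeq2 gave no adjusted p between plasmids. With counts halved the interval of a ratio came to include 1 for KLF11 between plasmids in DU145 and for KLF2 and KLF4 between lines with the control plasmid, and for no other ratio of a member. Counts of members past 1.5-fold within a line were the same under the 4 alternatives run. Leaving out 1 library leaves no residual degree of freedom, so leave-one-out was not run as a test, and the ratios within each line stand in its place. KLF2 and KLF9, with 39 to 162 counts, are limited most by depth.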

Other observations

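Other members of the family differed between the lines in these counts. KLF8 had 0 and 4 counts in PC3 with circ0003553 and the control plasmid, and 61 and 78 in DU145 (PC3 over DU145 adjusted p = 6.97e-06, edgeR's quasi-likelihood test). KLF17 had 6 and 4 counts in PC3 and 46 and 48 in DU145 (adjusted p = 0.000131, edgeR). In the opposite direction, SP8 had 80 and 44 counts in PC3 and 1 and 0 in DU145 (adjusted p = 7.19e-07, edgeR). KLF12, which like KLF3 and KLF8 recruits CtBP, had 392 and 381 counts in PC3 and 164 and 124 in DU145 (log2 fold change 1.53 ± 0.19, adjusted p = 5.96e-06, edgeR), while KLF3 was lower in PC3. These 4 genes were chosen after their values were seen.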
